A study of Rattus norvegicus with 24 samples.

Results

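Aff3 and Rybp are 2 genes of the transcription and chromatin machinery whose levels in rat mesenteric artery were highest after estradiol benzoate. They were chosen by their measured levels in the 3 groups compared here, so the levels and the differences between groups are given as descriptions, without a test. Each is read by 1 probe, and together they are 2 of the 6455 genes named by a probe with a single gene symbol, in a table of 10399 probes. The arrays are one-colour CodeLink arrays, and a value is an intensity scaled so that the median of each array lies just below 1.

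All 12 animals were female Sprague Dawley rats whose ovaries were removed at 3 weeks of age, followed by 2 weeks of recovery. They received intraperitoneal injections for 4 days and were 5.5 weeks old. The vehicle group (4 animals) received sesame oil, the estradiol benzoate group (4 animals) received 0.15 mg/kg per day of this esterified estrogen, and the testosterone group (4 animals) received 1 mg/kg per day of the androgen. Every group therefore lacked ovaries, and no intact or sham-operated animal is among these samples. The arteries are described as dissected free of fat, connective tissue and veins. The RNA of each animal was labelled once and hybridised to 2 arrays, AA and AB. The level of an animal is the mean of the log2 values of its arrays, so n counts animals.

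AFF3 belongs to the AFF family of nuclear proteins, first described in lymphoid cells as LAF4. Proteins of this family are the scaffolds of super elongation complexes, which bring the kinase P-TEFb (a CDK9 and cyclin T pair) to paused RNA polymerase II and release it into productive elongation. RYBP binds RING1 and the transcription factor YY1. It is a subunit of variant forms of Polycomb repressive complex 1 (PRC1), which place ubiquitin on histone H2A, and its close paralog YAF2 occupies the same place in these complexes.

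Aff3 was higher in the artery of every estradiol benzoate animal than in that of any vehicle or testosterone animal. Its intensities were 0.0783, 0.0902, 0.0878 and 0.0789 in vehicle animals 3, 4, 5 and 8. They were 0.1205, 0.142, 0.159 and 0.149 in estradiol benzoate animals 2, 3, 5 and 8. In testosterone animals 2, 4, 6 and 8 they were 0.0756, 0.0799, 0.0936 and 0.0858. The estradiol benzoate animals thus lie above both other groups, with animal 2 the lowest of them, while the vehicle and testosterone ranges overlap. Aff3 was chosen by these levels, and how many of all probes separate the groups in this way was not counted. Mean log2 levels were -3.58 ± 0.11 (SD, n = 4) with vehicle, -2.82 ± 0.17 (SD, n = 4) with estradiol benzoate and -3.58 ± 0.13 (SD, n = 4) with testosterone. Estradiol benzoate exceeded vehicle by 0.76 on the log2 scale (SE 0.11), a ratio of 1.70. It exceeded testosterone by 0.77 (SE 0.11), also a ratio of 1.70, and the distance between the lowest estradiol benzoate animal and the highest animal was 0.42 for vehicle and 0.36 for testosterone. Testosterone and vehicle had nearly the same mean (log2 difference -0.00, SE 0.11), and 2 of the 4 testosterone animals lay above the vehicle mean and 2 below it.

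Rybp was also highest with estradiol benzoate, by a smaller ratio, and unlike Aff3 its mean was lowest with testosterone. Vehicle animals 3, 4, 5 and 8 had intensities of 8.33, 9.19, 7.22 and 9.07. Estradiol benzoate animals 2, 3, 5 and 8 had 10.2, 10.2, 11.5 and 10.5. Testosterone animals 2, 4, 6 and 8 had 6.67, 6.60, 7.45 and 6.91. Every estradiol benzoate animal lies above every animal of the other groups, and 3 of the 4 testosterone animals lie below every vehicle animal. As for Aff3, the share of all probes that separate the groups in this way was not counted, so the separation is a description only. The vehicle and testosterone ranges still overlap, because vehicle animal 5 (7.22) lies below testosterone animal 6 (7.45). Mean log2 levels were 3.07 ± 0.16 (SD, n = 4) with vehicle, 3.41 ± 0.08 (SD, n = 4) with estradiol benzoate and 2.79 ± 0.08 (SD, n = 4) with testosterone. Estradiol benzoate exceeded vehicle by 0.34 on the log2 scale (SE 0.09), a ratio of 1.26. Testosterone differed from vehicle by -0.29 (SE 0.09), which puts its level at 0.82 of that of vehicle. Estradiol benzoate exceeded testosterone by 0.62 (SE 0.09), a ratio of 1.54. The comparisons of each hormone with vehicle use the same 4 vehicle animals, so they are not separate evidence. In order of level, the neighbouring groups whose ranges do not separate are vehicle and testosterone, for Rybp as for Aff3.

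**Figure D1:**
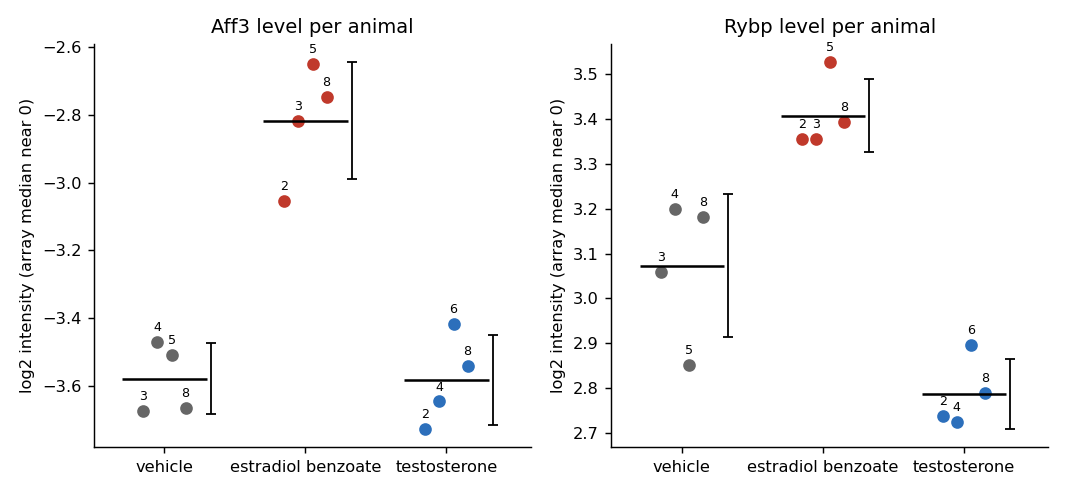
Level of Aff3 (left) and Rybp (right) in each animal, as the mean log2 intensity of its 2 arrays, by group. Points are animals with their numbers, horizontal lines are group means and bars are 1 SD (n = 4 animals). The 4 estradiol benzoate animals lie above all others in both panels, and the mean of Rybp is lowest with testosterone. Both genes were chosen by these levels.

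The duplicate arrays show how far a single array places each gene. The SD between arrays of 1 animal was 0.15 on the log2 scale for Aff3 and 0.11 for Rybp, and the SD between animals within groups, after averaging the arrays, was 0.14 and 0.11. For Aff3, the widest gap between duplicates was in vehicle animal 5, at 0.1068 on AA and 0.0722 on AB. On either array alone, the estradiol benzoate animals stayed above all others: the lowest had 0.1272 on AA and 0.1141 on AB, and the highest of the other groups had 0.1068 and 0.0927. For Rybp, vehicle animal 4 read 10.65 on AA and 7.925 on AB. Its AA value lies inside the AA range of the estradiol benzoate animals (10.53 to 11.93), so the separation of Rybp between estradiol benzoate and vehicle holds on AB and on the mean of both arrays, and not on AA alone.

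**Figure D2:**
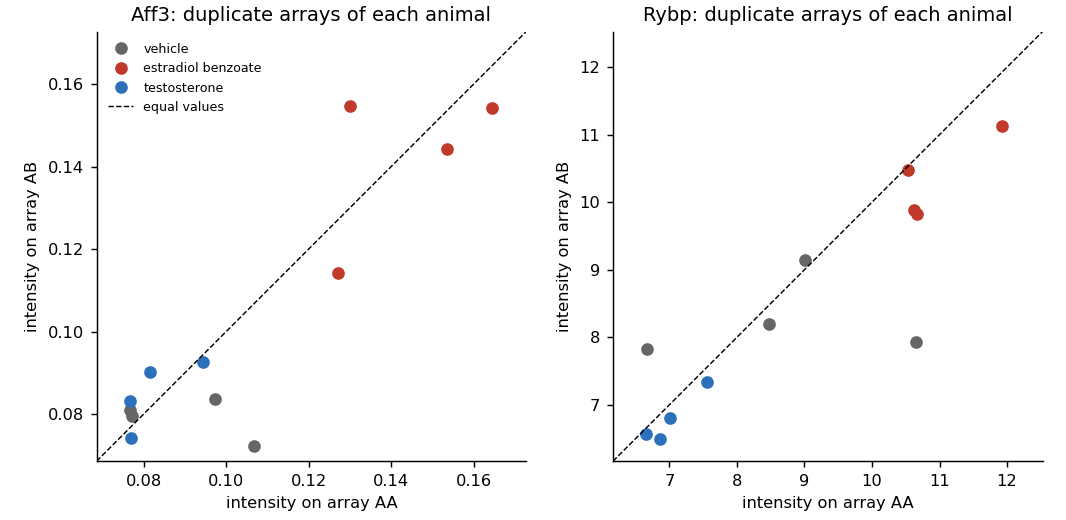
Intensity of Aff3 (left) and Rybp (right) on array AA (horizontal) and array AB (vertical) of each animal, 1 point per animal, coloured by group; the dashed line marks equal values. Vehicle animal 5 for Aff3 and vehicle animal 4 for Rybp lie farthest from the line.

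The probe of Aff3 is dim and that of Rybp is bright. Aff3 lay between percentiles 12.6 and 22.2 of the values of each array, and Rybp between percentiles 89.8 and 95.8. No detection call or background value accompanies the intensities used here, so how much of the Aff3 reading is background is unknown. The low end of the arrays did not separate the groups: the intensity below which 10% of the values lie was 0.0417 to 0.0462 in vehicle animals, 0.0417 to 0.0459 in estradiol benzoate animals and 0.0392 to 0.0509 in testosterone animals. With 0.1 added to each intensity before taking logs, the Aff3 difference was 0.40 for both comparisons of estradiol benzoate, so its size depends on how low values are treated, while its direction did not change. Aff3 is among the dimmest 25% of probes and has no value where these are left out.

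The values of related genes come from lists of names, and 56 genes besides Aff3 and Rybp were measured. The lists cover elongation factors, Polycomb and trithorax genes, binding partners of Rybp and Hox genes. They therefore reach beyond the complexes of Aff3 and Rybp. The group differences were fitted with limma over 10228 probes, and p-values were adjusted by the Benjamini-Hochberg method. None of the 56 passed an adjusted p of 0.05 with estradiol benzoate against vehicle, with testosterone against vehicle or with estradiol benzoate against testosterone, where 0%, 0.0489% and 0.0293% of all probes passed. At an unadjusted p under 0.05, no list gene was higher and 3 were lower with estradiol benzoate than with vehicle, against 6.77% of all probes higher and 6.69% lower. The total of 3 was 1 on array AA alone, 6 on array AB alone, 6 when vehicle animal 4 was left out, and 5 when vehicle animal 8 or estradiol benzoate animal 2 was left out or with all arrays and the animal as a random block. With testosterone against vehicle no list gene was higher and 9 (16.1%) were lower, against 6.62% and 7.43% of all probes. That count was 5 after quantile normalization, on array AA alone or without testosterone animal 6, 4 without vehicle animal 3 or testosterone animal 2, and 3 with only these groups in the fit. Between estradiol benzoate and testosterone no list gene was higher and 1 was lower, against 2.41% and 1.71% of all probes, and the total ranged from 0 to 4 over the alternatives. The median difference of the 56 genes was -0.07 in both comparisons with vehicle and 0.03 between the hormones, beside -0.01, -0.01 and -0.00 over all probes.

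Among the genes nearest to Aff3 in role, Aff4, the family member that scaffolds the best described super elongation complex, had intensities of 2.45 to 2.84 with vehicle, 2.68 to 2.91 with estradiol benzoate and 2.52 to 2.70 with testosterone. Its log2 difference between estradiol benzoate and vehicle was 0.12 (SE 0.08, limma adjusted p = 0.494). Cdk9, the kinase of P-TEFb, was 0.23 above vehicle with estradiol benzoate (SE 0.14, limma adjusted p = 0.459) and 0.14 above it with testosterone (SE 0.14, limma adjusted p = 0.672), and its dimmer second probe gave 0.25 and 0.27. The ranges of all 3 groups overlap for Aff4, and for Cdk9 both hormone groups overlap vehicle. No probe with a single symbol was matched to the family members Aff1 and Aff2, which are not analysed here.

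The list for the super elongation complex and P-TEFb has 11 measured genes, not all of them subunits of either. The 4 with the smallest p over the 3 groups were Eaf1, Ccnt2, Larp7 and Cdk9. The means of Eaf1, Ccnt2 and Larp7 were lower with both hormones than with vehicle, and that of Cdk9 was higher with both. Ccnt2, a cyclin partner of Cdk9, had intensities of 1.25 to 2.17 with vehicle, 1.18 to 1.39 with estradiol benzoate and 1.11 to 1.48 with testosterone. Its log2 differences from vehicle were -0.41 and -0.48 (SE 0.16 for both, limma adjusted p = 0.311 and 0.264), with vehicle animal 5 as low as the hormone animals. Larp7, which binds the 7SK RNA that holds P-TEFb inactive, differed from vehicle by -0.28 and -0.30 (SE 0.13, limma adjusted p = 0.374 and 0.343). Its vehicle mean rests in part on animal 3, at 9.17 against 6.58 to 6.91 in the other vehicle animals. Eaf1, a partner of the ELL elongation factors, differed by -0.69 and -0.73 (SE 0.22, limma adjusted p = 0.268 and 0.243), at intensities of 0.0075 to 0.0198, near the bottom of the arrays. For Ccnt2, Larp7 and Eaf1 the differences from vehicle were of like size with either hormone, whereas Aff3 differed from vehicle by -0.00 with testosterone. Both differences of a gene use the same vehicle animals, so their like size is not separate evidence. These genes were also chosen by their p over the same groups.

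Among 10 measured elongation factors of RNA polymerase II, 9 had a mean below vehicle with estradiol benzoate and 1 above it. The share of all probes with a mean below vehicle was not counted, so this is a description only. Rtf1 counts as below at -0.03 (SE 0.08), while its dimmer probes gave 0.25 and 0.27. Of the 10, 1, Tcea3, passed an unadjusted p of 0.05, against 6.69% of all probes lower. Tcea3 is a TFIIS family factor that rescues stalled polymerase. Its intensities were 1.89 to 2.26 with vehicle, 1.65 to 2.02 with estradiol benzoate and 1.98 to 2.13 with testosterone. The log2 difference was -0.26 between estradiol benzoate and vehicle (SE 0.09, limma adjusted p = 0.284) and -0.05 between testosterone and vehicle (SE 0.09, limma adjusted p = 0.825). Ccnk, the cyclin of CDK12 and CDK13, differed from vehicle by -0.30 with testosterone (SE 0.12, limma adjusted p = 0.324) and by -0.15 with estradiol benzoate (SE 0.12, limma adjusted p = 0.587). Eloc, a subunit of the elongin complex, had differences of -0.03 and 0.27 (SE 0.18 for both), and Skic8, a subunit shared by the PAF1 and SKI complexes, of -0.16 and -0.08 (SE 0.09 for both).

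Among the partners of Rybp, the paralog Yaf2 had intensities of 1.29 to 1.46 with vehicle, 1.43 to 1.68 with estradiol benzoate and 1.44 to 1.68 with testosterone. It differed from vehicle by 0.17 with estradiol benzoate (SE 0.08, limma adjusted p = 0.395) and by 0.14 with testosterone (SE 0.08, limma adjusted p = 0.469), so its mean was not lower with testosterone as that of Rybp was. Rnf2, the catalytic RING subunit of PRC1, had differences of -0.03 and 0.18 (SE 0.12 for both, limma adjusted p = 0.928 and 0.532). Between estradiol benzoate and testosterone Rnf2 differed by -0.21 (SE 0.12), where Rybp differed by 0.62. Ring1, Bmi1, Kmt2a and Ezh2 had no probe with a single symbol, and the probe of Cdkn2a, a classic Polycomb target, had too few values for the fit.

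Of 16 measured PRC1 genes, 2 were lower at an unadjusted p under 0.05 with testosterone and none with estradiol benzoate, against 7.43% and 6.69% of all probes. They were Cbx6, a chromodomain subunit (-0.29, SE 0.12, limma adjusted p = 0.324), and Hdac1, a histone deacetylase (-0.21, SE 0.09, limma adjusted p = 0.346). With estradiol benzoate the same genes differed from vehicle by -0.18 and -0.16. L3mbtl2 and E2f6, chromatin-binding and DNA-binding subunits of the variant complex PRC1.6, had differences of -0.21 and 0.04 with estradiol benzoate and -0.23 and -0.13 with testosterone. E2f6 was 0.17 higher with estradiol benzoate than with testosterone (SE 0.08, limma adjusted p = 0.999), the same order of hormones as Rybp at a smaller size. Gabpb1, a subunit of the GABP transcription factor to which RYBP binds, differed from vehicle by -0.33 and -0.53 at intensities of 2.62 to 3.06 with vehicle, 2.04 to 2.63 with estradiol benzoate and 1.22 to 2.54 with testosterone. Hipk2, a nuclear kinase that RYBP binds, differed from vehicle by -0.20 and -0.11 (SE 0.14 for both).

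Of PRC2, the methyltransferase complex of Polycomb repression, 2 genes were measured: Ezh1, a catalytic subunit, differed from vehicle by 0.07 and -0.01, and Rbbp7, a histone-binding subunit, by -0.18 with either hormone. Of 12 measured genes of the KMT2 and trithorax group, which places the activating mark on histone H3, 2 were lower at an unadjusted p under 0.05 with testosterone, against 7.43% of all probes. They were the core subunits Rbbp5 (-0.24, SE 0.11, limma adjusted p = 0.349) and Dpy30 (-0.20, SE 0.09, limma adjusted p = 0.333). With estradiol benzoate they differed by -0.21 and -0.14. Wdr5, a core subunit found in both KMT2 and variant PRC1 complexes, differed by -0.13 and -0.18 (SE 0.09 for both), and its dimmer second probe by 0.22 and 0.24 (SE 0.21 for both), so its probes disagree in sign. Cxxc1, which binds unmethylated CpG sites, was 0.17 higher with estradiol benzoate than with testosterone (SE 0.11, limma adjusted p = 0.999). The 3 measured Hox genes, classic targets of both systems, were Hoxa2 (0.24 and 0.22), Hoxd8 (-0.01 and -0.03) and Hoxd9 (0.24 and 0.16 from vehicle with estradiol benzoate and testosterone), and none passed an unadjusted p of 0.05.

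**Figure D3:**
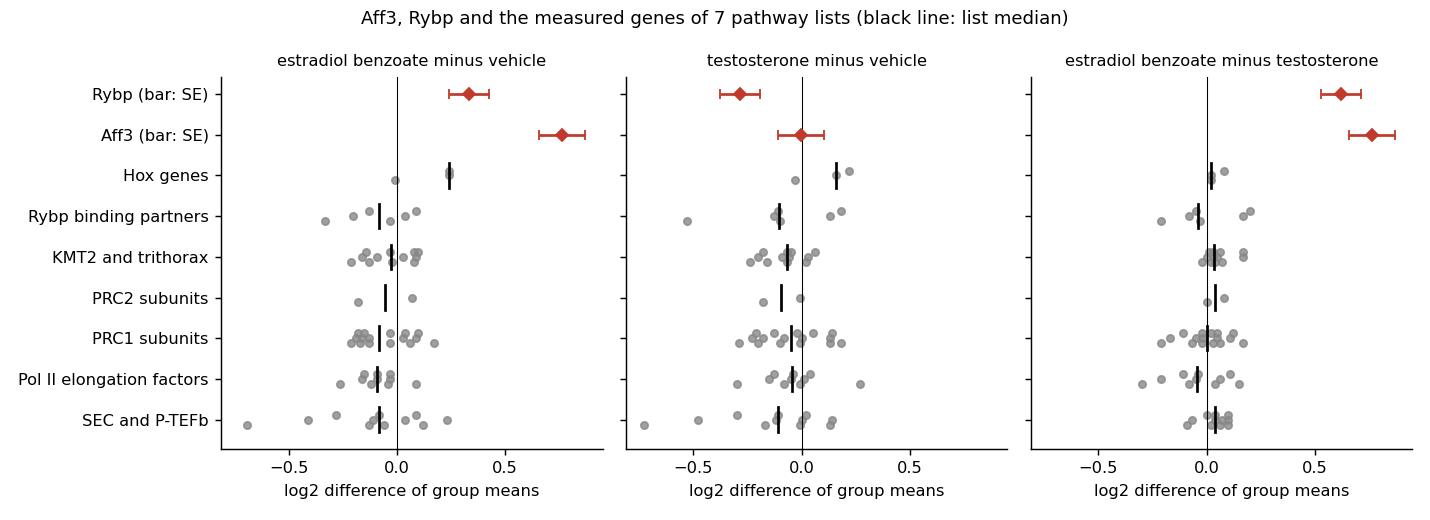
Log2 differences of group means in the 3 comparisons, for Aff3 and Rybp (diamonds, bars 1 SE) and for the measured genes of each pathway list (grey points, black line at the list median). In the comparisons of estradiol benzoate with vehicle and with testosterone, Aff3 (0.76 and 0.77) lies to the right of every list gene, and Rybp lies at 0.34 and 0.62. Both genes were chosen by their levels in these groups, so their places beside the list genes are a description only.

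The genes most like Aff3 in pattern were found by Pearson's r with its log2 level over the 12 animals, among 7035 named probes with a value in every animal. The r and the differences given with it are descriptions, since the 12 points share 3 group means and the arrays. Aff3 and Rybp were also chosen by their group levels, and genes picked for a like pattern carry that choice. Hip1 (r = 0.922), an adaptor of clathrin-coated vesicles, differed from vehicle by 0.59 with estradiol benzoate and by -0.03 with testosterone. Slc38a1 (r = 0.912), a glutamine transporter, differed by 1.20 and 0.25, and the methyltransferase gene Inmt (r = 0.905) by 1.16 and 0.13. Akr1c14 (r = 0.886), a hydroxysteroid dehydrogenase, differed by 1.57 and 0.36, and Dhrs7 (r = 0.880), a short-chain dehydrogenase, by 0.60 and -0.01. The genes most opposite were the zinc finger gene Mecom (r = -0.872), the copper pump gene Atp7a (r = -0.854), the calcium channel gene Cacna1d (r = -0.828), Tcea3 (r = -0.812) and Prp2l1 (r = -0.759), of which Cacna1d and Prp2l1 were very dim, with mean intensities of 0.0098 and 0.0184.

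For Rybp the most alike were Zmiz1 (r = 0.880), a transcriptional coactivator, Plod2 (r = 0.865), a collagen lysyl hydroxylase, Ahcyl2 (r = 0.847), the interleukin 4 receptor gene Il4r (r = 0.837) and Aff3 itself (r = 0.828). Zmiz1 differed from vehicle by 0.17 with estradiol benzoate and by -0.24 with testosterone, and Plod2 by 0.40 and -0.23. Il4r differed by 0.94 and -0.36, and Ahcyl2 by 0.29 and -0.04. The most opposite were Tmem178a (r = -0.834), Prp2l1 (r = -0.833), Slc50a1 (r = -0.814), the DNA polymerase alpha subunit gene Pola2 (r = -0.811) and Rasl10a (r = -0.788).

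**Figure D4:**
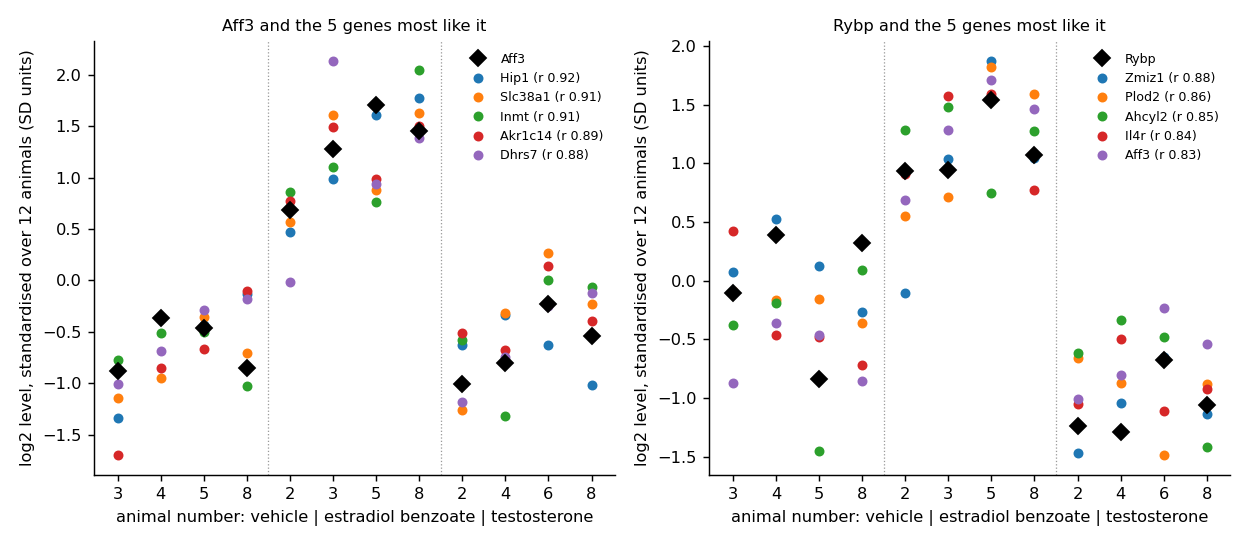
Log2 level of Aff3 (left) and Rybp (right) and of the 5 genes most like each, standardised over the 12 animals (vertical axis, in SD), by animal number within vehicle, estradiol benzoate and testosterone (horizontal axis). Black diamonds are Aff3 or Rybp and coloured points the other genes, and r is Pearson's over 12 animals. The mean of each chosen gene is highest in the estradiol benzoate group, which reflects how the genes were picked. Zmiz1 in estradiol benzoate animal 2 still lies below 3 of the 4 vehicle animals.

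With the group means taken out, different genes came first. The deviations of Aff3 from its group means were most like those of Mapkapk5 (r = 0.948), Tle1 (r = 0.939), Efs (r = 0.925), Vash2 (r = 0.922) and Pex5 (r = 0.917). Those of Rybp were most like those of Crk (r = 0.909), Socs5 (r = 0.888), Bmt2 (r = 0.877), Fam133b (r = 0.871) and Helq (r = 0.861). Within groups Aff3 and Rybp themselves had r = 0.36 (exact permutation within groups, two-sided p = 0.233; Spearman rho 0.512, p = 0.123), against 0.828 with the group means included. Without the 2 animals farthest from the median of Aff3, r was 0.29. Without vehicle animal 5, which was high for Aff3 on 1 array and lowest of its group for Rybp, it was 0.783. This was 1 of 21 relations tested within groups, and its Benjamini-Hochberg adjusted p was 0.603.

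These are whole arteries, in which fewer cells of a type and less RNA per cell cannot be told apart. For the vessel label, 10 endothelial markers, brightest Pecam1, and 3 smooth muscle markers, brightest Cnn1, were measured, and the contractile markers Acta2 and Myh11 had no probe used here. Pecam1 had intensities of 23.4 to 34.0 and Cnn1 of 28.2 to 47.4 over the 12 animals, and without detection calls these show signal at the probes and no more. The summed intensity of the smooth muscle markers was 49.2 to 66.4 with vehicle, 44.0 to 59.9 with estradiol benzoate and 44.9 to 57.4 with testosterone. That of the endothelial markers was 62.2 to 73.0, 54.9 to 67.9 and 61.9 to 75.1. At an unadjusted p under 0.05, 2 of the 10 were lower with estradiol benzoate and 1 with testosterone, against 6.69% and 7.43% of all probes. Tek was among them with both hormones, while its dimmer second probe differed from vehicle by 0.67 and 0.71.

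Marker sums of other cell types are given by group and were not tested. For B cell and macrophage markers the ranges of all groups overlapped. The 11 T cell markers, brightest Lat, summed to 1.27 to 1.46 with vehicle, 1.47 to 2.12 with estradiol benzoate and 1.56 to 2.02 with testosterone. At an unadjusted p under 0.05, 6 of them were higher with estradiol benzoate and 5 with testosterone than with vehicle, against 6.77% and 6.62% of all probes, and none passed the adjusted threshold. The 9 white adipocyte markers, brightest Fabp4, summed to 104.0 to 114.4 with vehicle, 121.9 to 129.6 with estradiol benzoate and 103.6 to 136.7 with testosterone. These are bright values (Fabp4 mean intensity 29.7) in arteries described as dissected free of fat. At an unadjusted p under 0.05, 4 of the 9 were higher with each hormone, against 6.77% and 6.62% of all probes. Only Aqp7 and Agpat2 were so with both. Adipoq and Pck1 had means below vehicle with both hormones. For 4 fibroblast markers, brightest Mfap5, the sums were 54.6 to 66.7, 38.8 to 50.8 and 41.1 to 58.8, and of 5 tested markers 2 were lower with estradiol benzoate and 1 with testosterone at the same threshold, against 6.69% and 7.43% of all probes. The 5 B cell markers summed to 12.2 to 18.2, 10.7 to 23.2 and 13.4 to 19.1, mostly through Cd74 (mean intensity 16.3). Of the 5, 2 were higher with estradiol benzoate and 1 with testosterone at that threshold, against 6.77% and 6.62% of all probes. The 4 macrophage markers summed to 18.1 to 26.6, 18.2 to 23.3 and 15.3 to 21.2. At that threshold 1 was lower with testosterone, against 7.43% of all probes. The 9 nerve and glia markers with a value in every animal summed to 7.53 to 8.42, 8.30 to 8.92 and 9.54 to 11.2. These sums leave out Pmp22, the brightest of the list (mean intensity 29.1), which has no value in vehicle animal 5. Unlike the sums, the mean of Pmp22 was below vehicle with both hormones (log2 differences -0.16 and -0.28, SE 0.16 for both). Of all 10 tested nerve and glia markers, 2 were higher and 1 lower with each hormone at that threshold. Over all probes, 6.77% were higher and 6.69% lower with estradiol benzoate, and 6.62% and 7.43% with testosterone. No marker list was at 0, and the part of these cells in the levels of Aff3 and Rybp was not tested beyond the relations within groups.

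For relations within groups, a marker list is the mean of its genes' log2 levels, each centred on that gene's mean. It is not the summed intensity, so dim and bright genes weigh alike. Within groups, the largest r between Rybp and a marker list with an unadjusted p under 0.05 was that with the T cell markers, at r = 0.725 (exact permutation within groups, two-sided p = 0.0222, adjusted p = 0.39 over 21 relations, Spearman rho 0.532, p = 0.114). It was 0.573 without the 2 animals farthest from the median of Rybp and 0.553 without vehicle animal 5. Rybp and the hepatocyte markers had r = -0.75 (exact permutation p = 0.0681, adjusted p = 0.39; Spearman rho -0.353, p = 0.365). It was -0.392 without the 2 farthest animals and -0.253 without vehicle animal 5. With the white adipocyte markers Rybp had r = 0.53 (exact permutation p = 0.0759, adjusted p = 0.39, Spearman rho 0.505). Over 14 alternatives this r was 0.405 to 0.729, with exact permutation p from 0.00608 to 0.297. With the macrophage markers Rybp had r = -0.603 (exact permutation p = 0.0924, adjusted p = 0.39, Spearman rho -0.527). For Aff3 the largest was r = -0.551 with the nerve and glia markers (exact permutation p = 0.0928, adjusted p = 0.39; Spearman rho -0.502, p = 0.142; r = -0.494 without the 2 farthest animals). With the T cell markers it was r = 0.286 (exact permutation p = 0.407, adjusted p = 0.65; Spearman rho 0.3, p = 0.389; r = 0.026 without the 2 farthest animals). No relation passed the adjustment.

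Markers of liver and pancreas differed between the groups and stood apart in a pair of animals. The 8 hepatocyte markers summed to 6.23, 3.92, 36.0 and 1.71 in vehicle animals 3, 4, 5 and 8, to 1.88 to 2.26 with estradiol benzoate and to 1.29 to 1.58 with testosterone, so every vehicle animal lies above every testosterone animal. At an unadjusted p under 0.05, 4 of the 8 were lower with estradiol benzoate and 6 with testosterone than with vehicle, against 6.69% and 7.43% of all probes. In estradiol benzoate animal 3 the 8 pancreatic acinar markers summed to 100.6, against 0.431 to 4.87 elsewhere, and 5 of the 8 were higher with estradiol benzoate than with vehicle at that threshold, against 6.77% of all probes. The part of these tissues in the levels of Aff3 and Rybp was not tested beyond the relations within groups. Without vehicle animal 5, which has the lowest Rybp of its group, the Rybp difference from vehicle was 0.26 with estradiol benzoate and -0.36 with testosterone, and the Aff3 difference with estradiol benzoate was 0.79. Without estradiol benzoate animal 3, Aff3 exceeded vehicle by 0.76 and Rybp by 0.35.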

How the data were processed

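The deposited table gives 1 intensity per probe and array (24 arrays). How the authors scanned the arrays, corrected background, scaled values and filtered spots is not given in the sources used here. The intensities were used as deposited, apart from 327 values at or below 0, set to missing. Genes were named from the platform annotation: 7294 probes had 1 symbol, 88 several and 3017 none. Each animal's 2 arrays were averaged on the log2 scale, and 10228 probes with values in at least 3 animals per group entered a group-means model in limma 3.58.1 (R 4.3.3, eBayes, Benjamini-Hochberg adjustment), which was checked on simulated data. P-values measure the spread between the animals of these groups. Relations within groups used exact permutations (13824 each).

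Aff3, Rybp and the gene lists were chosen with earlier results of these data known. The text names both genes, 11 partners where measured, up to 4 genes per pathway list with the smallest p over groups, the genes most like or opposite to each, and the brightest marker of each list; the brightest probe stands for a gene, and the T cell, B cell and other marker sums use genes with values in all animals. Alternatives were quantile normalization, 0.1 added before logs, replacement of values at or below 0, single arrays, all arrays with the animal as a random block, separate pairs of groups, another variance prior, a filter on dim probes, animal numbers as a block and leaving out each animal.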

Additional observations from a re-analysis of the deposited data

Results flagged for a closer look

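Neither Aff3 nor Rybp had an animal far from the other 3 of its group. Groups of 4 animals were examined for Aff3, Rybp, the partners, the list genes with the smallest p and the brightest markers, 112 in all. Genes named only for a like or opposite pattern were not examined. In 6 of the 112, 1 animal had a gap to the next above Dixon's 95% critical value as a share of the group's range. Chance alone gives about 1 in 20. Larp7 was high in vehicle animal 3 (log2 3.20, intensity 9.17, against 6.58 to 6.91 in the others). Ccnk was low in estradiol benzoate animal 5 (log2 -1.20, intensity 0.435, against 0.479 to 0.482). Eloc was high in vehicle animal 8 (log2 -1.51, intensity 0.352, against 0.215 to 0.233). Rbbp7 was low in testosterone animal 2 (log2 4.08, intensity 16.9, against 20.8 to 21.5), as was Cd74, the brightest B cell marker, in the same animal (log2 3.70, intensity 13.0, against 18.1 to 18.7). Pecam1 was low in estradiol benzoate animal 3 (log2 4.55, intensity 23.4, against 29.0 to 30.1).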

How the results depend on the processing

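The difference of Aff3 between estradiol benzoate and vehicle stayed between 0.40 and 0.84 on the log2 scale over 17 alternatives, and that between estradiol benzoate and testosterone between 0.40 and 0.84. The only ones outside the spread between animals were 0.397 and 0.400, with 0.1 added before logs; its filter-on-dim-probes value could not be had, since Aff3 is among the dimmest 25%. Rybp stayed between 0.26 and 0.41, -0.36 and -0.20, and 0.58 and 0.71 in the 3 comparisons (18 alternatives). Animals of the same number were not treated as pairs (7 same-number pairs, r -0.12 to 0.30, 2 over 0.1). Whether the numbers mark litters or batches is not known, and these correlations cannot settle it. As a replicate block, animal numbers gave Aff3 0.823 against vehicle and Rybp 0.359, -0.348 and 0.707. Counts of the 56 list genes at an unadjusted p under 0.05 moved by over 1.5 times: with estradiol benzoate against vehicle from 3 to 1 (array AA), 6 (array AB), 5 (animal as a random block); with testosterone from 9 to 5 (quantile normalization, array AA, replicate block) and 3 (only the groups compared); between the hormones from 1 to 2 (values at or below 0 replaced, 0.1 added), 0 (array AA), 3 (random block) and 4 (only the groups compared). Leaving out 1 animal gave 2 to 6, 4 to 10 and 0 to 1 genes. The counts moved by over 1.5 times without vehicle animals 4 (6) and 8 (5) or estradiol benzoate animal 2 (5) in the first comparison, without vehicle animal 3 (4) or testosterone animals 2 (4) and 6 (5) in the second, and without estradiol benzoate animals 2 and 5 or testosterone animals 4 and 8 (0 each) in the third. No list gene passed the adjusted threshold under any alternative. Rybp and the T cell markers had r from 0.553 to 0.947, and its unadjusted exact p rose to 0.124 when vehicle animal 5 was left out and to 0.114 when estradiol benzoate animal 5 was.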
